A study of Mus musculus with 6 samples.

Results

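Elastic fibre and microfibril genes were examined as a set of 10 genes, chosen by their symbols, out of 17556 genes measured by bulk RNAseq in left ventricles of infarcted mice. All 10 were found and all 10 passed the filter on low counts. The ventricles came from sibling mice of 6 to 10 weeks of age. Every animal carried floxed alleles, both of Yap and 1 of Wwtr1, had its left anterior descending artery permanently tied, and ate tamoxifen citrate chow from the time of surgery until collection at 4 days post injury (dpi). The animals of the 3 Cre positive (Cre pos) ventricles had 1 copy of MerCreMer, a Cre that enters the nucleus in the presence of tamoxifen, under the endogenous Periostin promoter, and those of the 3 Cre negative (Cre neg) sibling ventricles had wildtype Periostin. That promoter is used by myofibroblasts, so that only a part of the cells whose RNA was measured can recombine. The comparison addresses whether depletion of Yap and Wwtr1 in myofibroblasts goes with other levels of these genes in the whole ventricle.

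Elastic fibres let a tissue recoil after stretch. Cells secrete tropoelastin, which short fibulins gather on a scaffold of fibrillin microfibrils, where lysyl oxidases crosslink it into an insoluble core. Microfibrils also bind latent TGF-β through the LTBP proteins. In the heart these proteins are made mostly by fibroblasts, smooth muscle and the cells of valves and large vessels, and after infarction they are laid down in the scar. In RNA of whole tissue, fewer cells of a type and less RNA per cell cannot be told apart.

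Libraries held between 13177888 and 14827579 estimated read counts. Cre neg replicate 1 stood apart from the other ventricles. The summed level of 6 smooth muscle markers was 483 TPM (a level per transcript length, relative to all transcripts of the library) in it and 876 to 1102 in the others, that of 8 fibroblast markers was 3472 against 4828 to 6187, and that of 5 neutrophil markers was 413 against 48.4 to 156. All 8 cardiomyocyte markers were present in every ventricle, at 27550 to 37860 TPM in sum. Atrial markers (*Myl7*, *Sln* and *Myl4*) ranged from 55.0 TPM in Cre pos replicate 2 to 2196 TPM in Cre pos replicate 1, in tissue labelled left ventricle. *Yap1* had 1419 to 1547 normalized read counts in Cre neg and 1436 to 1615 in Cre pos ventricles, and *Wwtr1* had 1463 to 1616 and 1559 to 1661. The groups overlapped for both targeted genes, with log2 fold changes of Cre pos over Cre neg of 0.03 and 0.05, so that normalized read counts did not separate the genotypes. In TPM the Cre pos ventricles were just above the Cre neg ventricles for both, with 48.9 to 50.7 against 44.2 to 46.3 TPM for *Yap1* and 43.9 to 47.4 against 39.3 to 43.6 TPM for *Wwtr1*. On neither scale was the RNA of the whole ventricle lower in Cre pos samples. *Postn*, the locus that carries the Cre, had 12157, 24639 and 26862 normalized read counts in Cre neg replicates 1, 2 and 3 and 12682, 14240 and 13486 in Cre pos replicates 1, 2 and 3. For this gene, too, Cre neg replicate 1 was unlike its siblings and was near the Cre pos ventricles. The log2 fold change of *Postn* was −0.66 (quasi-likelihood adjusted p = 0.714 in edgeR) and did not pass the test. Without Cre neg replicate 1 it was −0.94 and passed it (adjusted p = 0.0182 in edgeR). Only Cre pos animals had the Cre at this locus, so an effect of that allele cannot be told apart from one of the depletion.

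The promoters of *Fbn1*, *Efemp2* and *Emilin1*, the members whose counts were furthest below the rest in Cre neg replicate 1 apart from *Mfap4*, are shown beside that of *Fbln1*, the member that was highest there. They come from RefSeq on GRCm38.p6, the build named in the submitters' processing notes, where 6 of the 10 members had 10 promoter entries (*Fbn1*, *Fbln1*, *Fbln2*, *Fbln5*, *Efemp2* and *Emilin1*). No entry was found for *Eln*, *Fbn2*, *Mfap4* and *Mfap5*. Each line gives the 250 bases before the start site of 1 entry, 5′ to 3′ on the strand of the gene, with GC boxes (GGGCGG on either strand) in capitals. The *Fbn1* stretch is chr2:125506439-125506688 on the minus strand, and the others are on the plus strand, *Efemp2* at chr19:5473696-5473945, *Emilin1* at chr5:30913536-30913785 and *Fbln1* at chr15:85205699-85205948. For *Efemp2*, with 3 entries, and *Fbln1*, with 2, the entry furthest upstream is shown, which ends where the RefSeq span of the gene begins. The start sites of the only entries of *Fbn1* and *Emilin1* lie inside the spans of these genes.
*Fbn1*: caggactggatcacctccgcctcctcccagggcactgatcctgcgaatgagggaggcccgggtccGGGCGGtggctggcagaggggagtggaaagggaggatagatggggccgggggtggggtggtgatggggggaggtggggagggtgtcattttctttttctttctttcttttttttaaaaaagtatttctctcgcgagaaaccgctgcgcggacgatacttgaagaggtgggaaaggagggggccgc
*Efemp2*: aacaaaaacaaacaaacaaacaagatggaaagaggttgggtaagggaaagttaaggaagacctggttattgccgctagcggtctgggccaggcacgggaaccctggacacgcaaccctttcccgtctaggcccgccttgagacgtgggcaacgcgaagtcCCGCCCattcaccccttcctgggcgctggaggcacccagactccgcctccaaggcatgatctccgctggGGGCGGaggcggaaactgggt
*Emilin1*: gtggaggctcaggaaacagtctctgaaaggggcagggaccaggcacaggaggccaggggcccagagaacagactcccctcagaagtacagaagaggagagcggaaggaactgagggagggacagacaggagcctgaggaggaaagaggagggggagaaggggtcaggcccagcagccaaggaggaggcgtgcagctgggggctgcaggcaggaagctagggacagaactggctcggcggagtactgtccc
*Fbln1*: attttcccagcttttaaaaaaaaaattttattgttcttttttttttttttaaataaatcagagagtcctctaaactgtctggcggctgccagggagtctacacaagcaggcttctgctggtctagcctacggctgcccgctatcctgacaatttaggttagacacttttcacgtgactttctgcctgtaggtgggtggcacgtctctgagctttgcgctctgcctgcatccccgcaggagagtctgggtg

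The 300 bases of each entry, 250 before and 50 after the start, were searched on both strands for 4 motifs. The GC box, bound by Sp1-type factors, was in 7 of the 10 entries and in 35.7% of all 32851 promoters of that length. The TEAD core GGAATG, bound by the TEAD factors through which Yap and Wwtr1 act, was in 0 of 10 entries and in 14.7% of all promoters. The AP-1 motif TGANTCA was in 0 of 10 and in 7.81%, and the TATA box TATAAA was in 0 of 10 and in 13.6%. Several entries of 1 gene overlap, and by gene 5 of 6 had a GC box in at least 1 entry, all but *Emilin1*. The entries of *Efemp2* held 2, 5 and 7 GC boxes, counting overlapping ones, and those of *Fbln1* 0 and 2. A match is a run of letters and not a bound site, and its absence concerns this window only.

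Levels of the members spanned a wide range when set per transcript length. *Mfap4*, a fibrinogen-related protein of microfibrils and elastin, was on average the most abundant at 337 ± 131 TPM (SD, n = 3) in Cre neg and 414 ± 32.5 TPM in Cre pos ventricles. *Mfap5*, a small protein bound to fibrillin, followed at 331 ± 42.4 and 378 ± 23.6 TPM. *Eln*, which encodes tropoelastin, stood at 250 ± 148 and 350 ± 181 TPM, and *Fbln2*, a long fibulin of basement membranes and vessel walls, at 251 ± 45.9 and 316 ± 15.1 TPM. These 4 were not in a fixed order, since *Eln* was above *Fbln2* in only 2 of 6 ventricles and *Mfap4* above *Mfap5* in 5 of 6.

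A second group lay lower. *Fbln2* was above *Fbln1* in all 6 ventricles without overlap of their ranges. *Fbln1* (140 ± 21.3 and 136 ± 27.5 TPM), *Efemp2* (110 ± 38.6 and 140 ± 11.6 TPM), *Emilin1* (109 ± 33.8 and 137 ± 16.2 TPM) and *Fbn1* (94.6 ± 29.9 and 131 ± 10.2 TPM) had overlapping ranges. *Efemp2* exceeded *Emilin1* in 3 of 6 ventricles. *Fbln5* was at 65.4 ± 16.0 and 83.9 ± 3.47 TPM, below *Fbn1* in every ventricle. *Fbn2*, a fibrillin used mainly before birth, was lowest at 3.42 ± 1.02 and 4.45 ± 1.11 TPM, and *Fbln5*, the next above it, had 19.0 times its mean level. Even so, *Fbn2* had 196 to 452 counts per ventricle, so its level was not limited by detection.

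**Figure D1:**
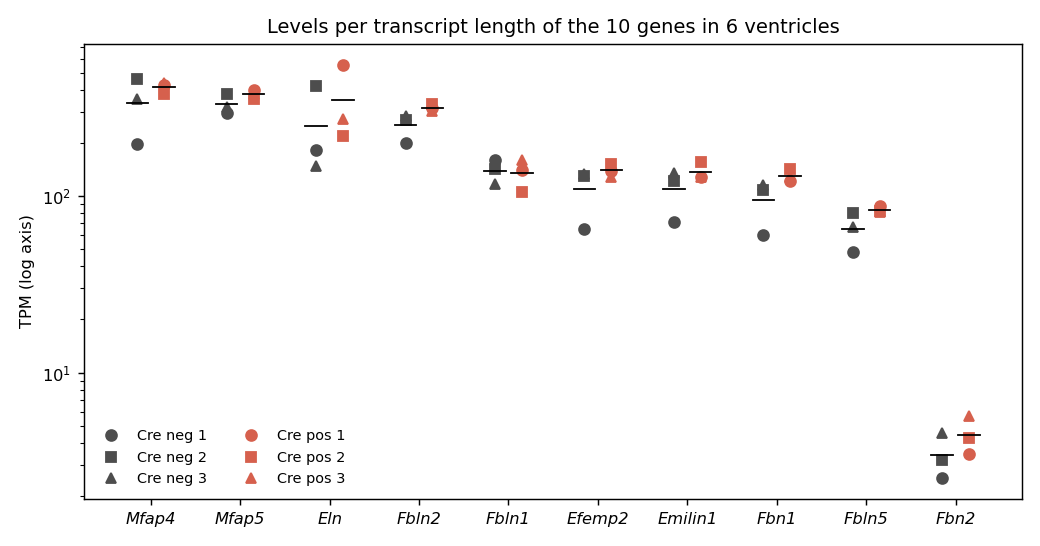
Levels of the 10 genes in TPM on a log axis, with 1 symbol per ventricle (grey for Cre neg, red for Cre pos) and a line at the mean of each genotype. 9 genes lie between 48.5 and 556 TPM and *Fbn2* between 2.52 and 5.64 TPM.

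Together the members made up 1280, 2111 and 1681 TPM in Cre neg replicates 1, 2 and 3 and 2316, 1923 and 2026 TPM in Cre pos replicates 1, 2 and 3. This is 0.128% to 0.232% of all transcripts. Without *Eln* the sum was 1098, 1692 and 1534 TPM in Cre neg and 1760, 1705 and 1751 TPM in Cre pos ventricles. The Cre pos ventricles were close to each other in these 9 genes and above every Cre neg ventricle, and Cre neg replicate 2 was near them. With *Eln*, Cre pos replicates 2 and 3 were below Cre neg replicate 2. In TPM, 15% of all genes tested, taken singly, had all Cre pos ventricles above all Cre neg ventricles.

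No member differed between genotypes by edgeR's quasi-likelihood test. With Benjamini-Hochberg adjustment over 13817 genes, 0 of 10 members had an adjusted p under 0.05, where 1 gene of all those tested (0.00724%) did. That gene was *Gbp2b*, an interferon-induced GTPase, which is no member and was picked out after its values were seen. At an unadjusted p under 0.05 the count was also 0 of 10, against 5.83% of all genes, and DESeq2's Wald test called 0 of 10. That unadjusted count was 2 (*Fbn1* and *Fbn2*) without Cre neg replicate 3, where 1346 of all 14002 genes tested had such a p. It was 1 (*Fbln5*) without Cre neg replicate 2, where 902 of 13971 did, and 0 without any 1 of the other 4 ventricles. The adjusted p-values of the members from edgeR lay between 0.714 and 0.826. Their log2 fold changes of Cre pos over Cre neg were nonetheless above 0 for 9 of 10 members, where 51.2% of all genes were above 0. The median of the members was 0.24 and that of all genes tested 0.0062. All members were measured in the same 6 ventricles, so they are not separate observations of the genotype.

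*Fbn1* (RefSeq span chr2:125300594-125506485 on GRCm38.p6, as for the spans that follow) encodes fibrillin-1, the backbone of the microfibril in adult tissue. Its normalized read counts were 5196, 8359 and 8905 in Cre neg replicates 1, 2 and 3 and 9351, 10100 and 9432 in Cre pos replicates 1, 2 and 3. The 3 Cre pos ventricles were above all 3 Cre neg ventricles, and Cre neg replicate 1 was far below the rest. The log2 fold change was 0.36 (standard error 0.20, 95% interval −0.09 to 0.82, quasi-likelihood adjusted p = 0.714 in edgeR), and exact permutation (two-sided) gave p = 0.1, the smallest that 3 against 3 allow. Without Cre neg replicate 1 the log2 fold change was 0.15 (95% interval −0.02 to 0.33, adjusted p = 0.781 from the same edgeR test). *Fbn2* had 230, 264 and 372 counts in Cre neg and 282, 324 and 441 in Cre pos ventricles. In each genotype replicate 1 was lowest and replicate 3 highest, and the groups overlapped (log2 fold change 0.27, 95% interval −0.25 to 0.79). Its log2 fold change was 0.13 without Cre neg replicate 1 and 0.06 without Cre pos replicate 3, but 0.50 without Cre neg replicate 3 and 0.40 without Cre pos replicate 1.

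*Fbln2* (chr6:91212460-91272540) was the other member whose groups did not overlap, with 7556, 9198 and 9597 counts in Cre neg and 10604, 10375 and 9718 in Cre pos ventricles. The lowest Cre pos ventricle was only just above the highest sibling. The log2 fold change was 0.22 (standard error 0.12, 95% interval −0.06 to 0.50, quasi-likelihood adjusted p = 0.714 in edgeR) and 0.12 without Cre neg replicate 1. Thus 2 of 10 members had all Cre pos ventricles above all Cre neg ventricles, where 7.55% of all genes tested did. *Fbln1* (chr15:85205949-85286294), a fibulin of vessel walls and basement membranes, went the other way, with 3779, 2952 and 2425 counts in Cre neg and 2974, 2063 and 3187 in Cre pos ventricles. It was the only member with a negative log2 fold change (−0.15, 95% interval −0.64 to 0.33), and the sign turned without Cre neg replicate 1 (0.02) and without Cre pos replicate 2 (0.01). Cre neg replicate 1, the lowest ventricle for 7 of 10 members, had the highest *Fbln1* count of all 6 ventricles.

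The short fibulins bring tropoelastin and lysyl oxidases together. *Fbln5* (fibulin-5, chr12:101746565-101819119) had 1053, 1572 and 1313 counts in Cre neg and 1739, 1494 and 1499 in Cre pos ventricles, and the groups overlapped because Cre neg replicate 2 was above 2 of the Cre pos ventricles. On the TPM scale, which is not adjusted by TMM, they just missed overlap, with 80.5 TPM in Cre neg replicate 2 and 81.1 TPM in the lowest Cre pos ventricle. In TPM 3 members (*Fbn1*, *Fbln2* and *Fbln5*) had all Cre pos ventricles above all Cre neg ventricles, where 15% of all genes tested did. The log2 fold change was 0.26 (standard error 0.15, 95% interval −0.08 to 0.61), 0.13 without Cre neg replicate 1 and 0.41 without Cre neg replicate 2. *Efemp2* (fibulin-4, chr19:5473946-5482520) had 858, 1548 and 1562 counts in Cre neg and 1608, 1657 and 1436 in Cre pos ventricles. Cre neg replicate 1 had 59.8% of the next lowest count, and the other 2 siblings lay within the range of the Cre pos ventricles. The log2 fold change of *Efemp2* was 0.24 (95% interval −0.26 to 0.75) over 6 ventricles and 0.00725 (95% interval −0.19 to 0.20) without Cre neg replicate 1, but 0.37 without Cre neg replicate 2 and 0.38 without Cre neg replicate 3.

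*Emilin1* (chr5:30913387-30921279), a glycoprotein at the boundary of elastin and microfibrils, had 2124, 3292 and 3632 counts in Cre neg and 3438, 3909 and 3273 in Cre pos ventricles. Here, too, Cre neg replicate 1 was far below the rest, and the log2 fold change of 0.23 became 0.03 without it, but 0.38 without Cre neg replicate 3 and 0.15 without Cre pos replicate 2. *Mfap4* (chr11:61485431-61488708) had 2494, 5196 and 3997 counts in Cre neg and 4777, 3934 and 4712 in Cre pos ventricles. Both the lowest and the highest of its ventricles were siblings, and the log2 fold change of 0.20 (95% interval −0.36 to 0.76) became −0.04 without Cre neg replicate 1 and 0.46 without Cre neg replicate 2. *Mfap5* (chr6:122513584-122529290) varied least of the members, from 2993 counts in Cre neg replicate 3 to 3721 in Cre pos replicate 1, 1.24-fold. Its log2 fold change was 0.09 (95% interval −0.17 to 0.35), 0.06 without Cre neg replicate 1, 0.02 without Cre pos replicate 1 and 0.17 without Cre neg replicate 2.

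**Figure D2:**
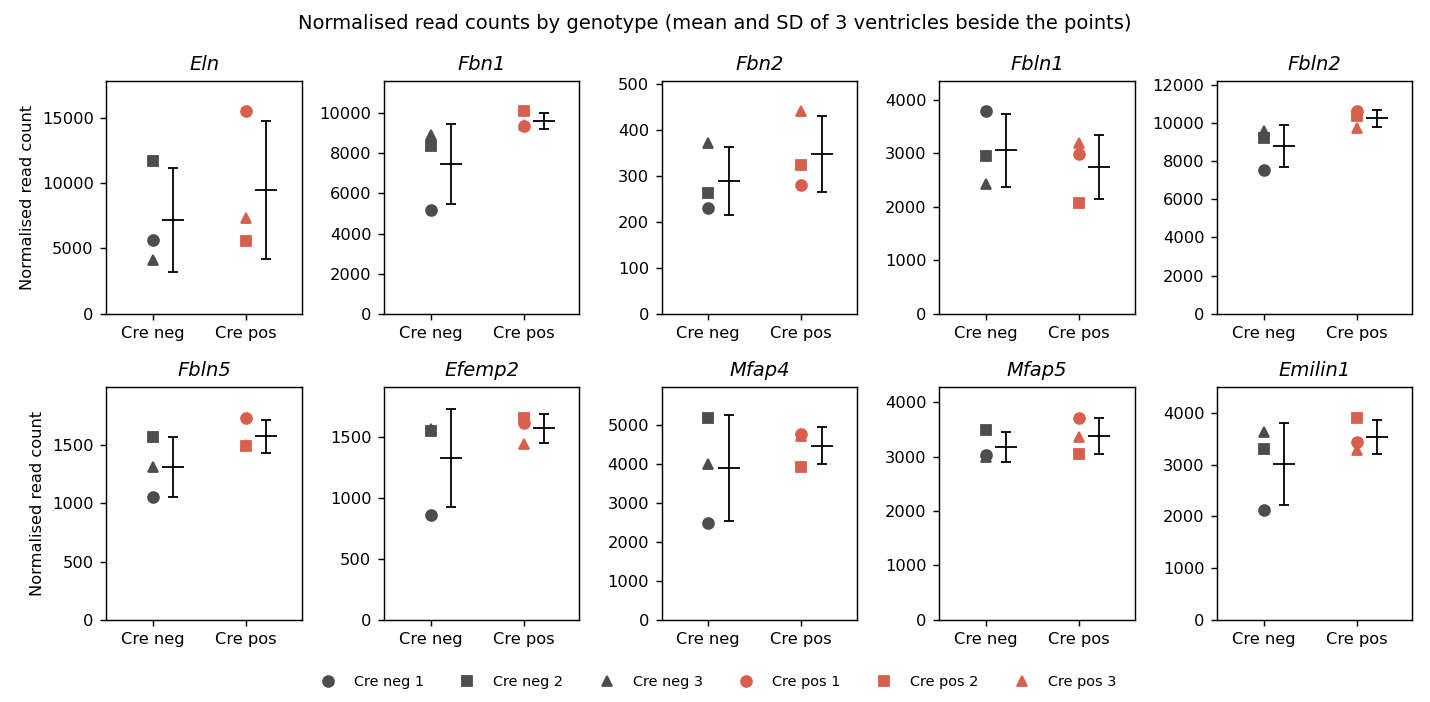
Normalized read counts of each gene (vertical axes from 0), with 1 symbol per ventricle and the mean and SD of 3 ventricles beside the points. Cre neg replicate 1 (grey circle) is the lowest point in 7 of 10 panels, and the genotypes do not overlap for *Fbn1* and *Fbln2*.

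*Eln* (chr5:134702595-134747368) varied most. Its normalized read counts were 5642, 11688 and 4142 in Cre neg replicates 1, 2 and 3 and 15488, 5592 and 7344 in Cre pos replicates 1, 2 and 3, a range of 3.74-fold. High and low ventricles occurred in both genotypes. The log2 fold change was 0.40 (standard error 0.47, 95% interval −0.69 to 1.5, quasi-likelihood adjusted p = 0.805 in edgeR), the largest among the members and the least certain. It was −0.15 without Cre pos replicate 1 and 0.96 without Cre neg replicate 2. The biological coefficient of variation that edgeR estimated for *Eln* was 0.397, at percentile 96.8 of all genes tested, while those of the other members were 0.118 to 0.217.

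Atrial markers were high in some of the ventricles with much *Eln*, but the orders differed. Cre pos replicate 1 had the most *Eln* (556 TPM) and the most atrial marker RNA in sum (2196 TPM). Cre neg replicate 3 had the least *Eln* (148 TPM) and 171 TPM of atrial markers, and Cre pos replicate 2 had 218 TPM of *Eln* and 55.0 TPM of atrial markers. Cre neg replicate 1 had the second highest atrial sum and the second lowest *Eln* level, with 182 TPM of *Eln* beside 1307 TPM of atrial markers. Cre neg replicate 2 had 419 and 956 TPM, and Cre pos replicate 3 had 275 and 451 TPM. Smooth muscle markers, whose cells make elastin in vessel walls, summed to 964 TPM in the ventricle with the most *Eln* and to 983 TPM in the one with the least. The part of atrial or vessel tissue in the *Eln* values was not tested.

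**Figure D3:**
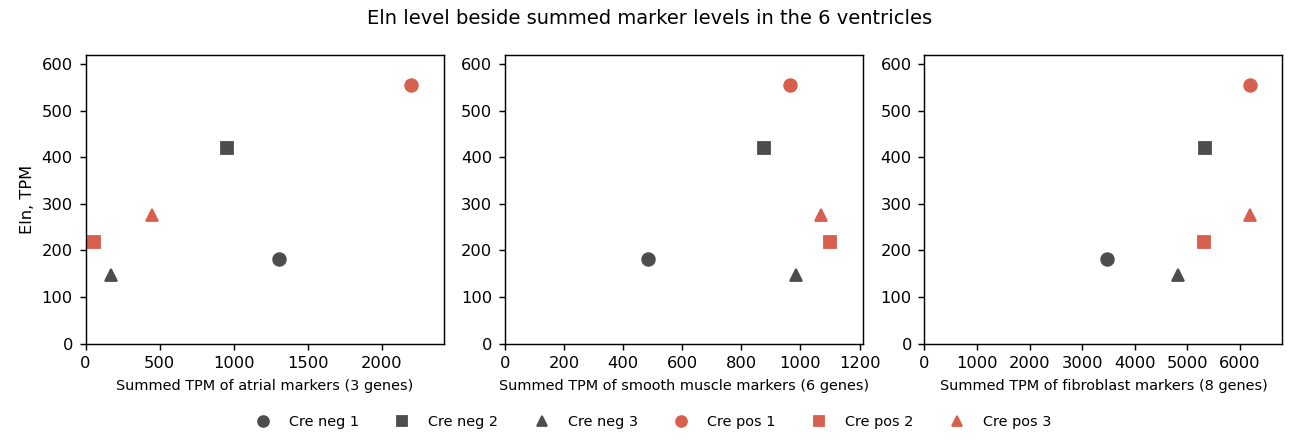
*Eln* in TPM against the summed TPM of 3 atrial, 6 smooth muscle and 8 fibroblast markers, with 1 symbol per ventricle. Cre pos replicate 1 is highest for *Eln* and for the atrial sum, while smooth muscle sums of 964 and 983 TPM go with the highest and the lowest *Eln* level.

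Across members, Cre neg replicate 1 was the lowest of the 6 ventricles for 7 of 10 genes (*Fbn1*, *Fbn2*, *Fbln2*, *Fbln5*, *Efemp2*, *Mfap4* and *Emilin1*), where it was lowest for 32.1% of all genes tested. Cre pos replicate 1 was highest for 4, Cre pos replicate 2 for 3, and each of Cre neg replicate 1, Cre neg replicate 2 and Cre pos replicate 3 for 1. The mean of the 10 centered log2 CPM values (TMM-scaled counts relative to the library total) was −0.40 in Cre neg replicate 1 and between −0.07 and 0.23 in the other 5. *Fbln5* followed this mean profile most closely, with a root mean square distance of 0.05, and *Fbln1* (0.39) and *Eln* (0.54) least closely. Among 10481 genes outside the set, the 5 with the smallest distance over the 6 ventricles were *Ltbp4* (0.045), *Sparc* (0.046), *Igsf8* (0.046), *Mkl1* (0.047) and *Tent2* (0.049). *Ltbp4* encodes a latent TGF-β binding protein that also takes part in elastic fibre assembly, and *Sparc* a collagen-binding matrix protein.

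**Figure D4:**
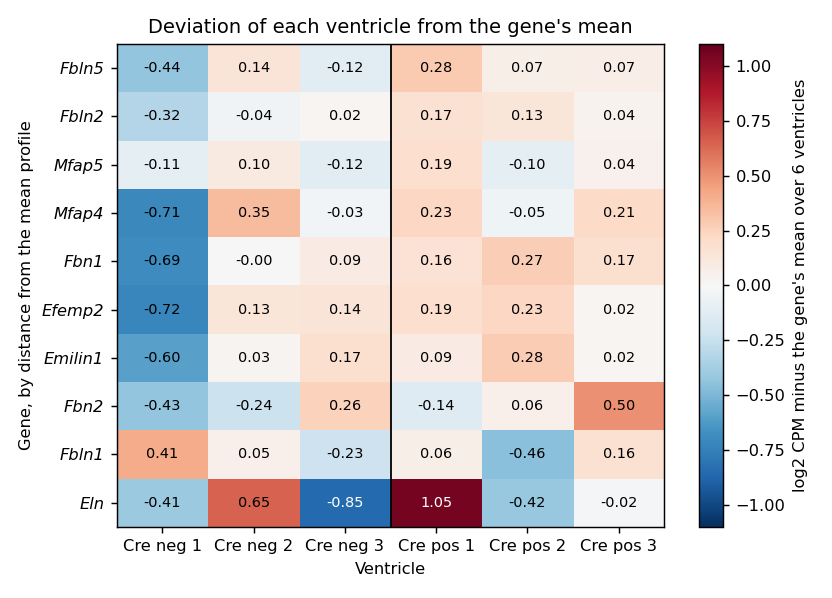
Deviation of each ventricle from the gene's own mean, in log2 CPM, with genes ordered from the smallest (*Fbln5*, 0.05) to the largest (*Eln*, 0.54) distance from the mean profile. Cre neg replicate 1 is below the mean for every gene except *Fbln1* (0.41).

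Without Cre neg replicate 1, 9 of 10 members had a log2 fold change above 0, *Fbln1* now among them and *Mfap4* no longer, and the median was 0.09 in place of 0.24. Each of the 10 values was nearer to 0. The 10 values then lay between −0.04 (*Mfap4*) and 0.26 (*Eln*), with 0 of 10 called and 0 of 10 at an unadjusted p under 0.05 by edgeR's quasi-likelihood test. The interval then left room for differences in either direction for every member, from −0.02 to 0.33 for *Fbn1*, the nearest to excluding 0, to −0.87 to 1.39 for *Eln*.

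**Figure D5:**
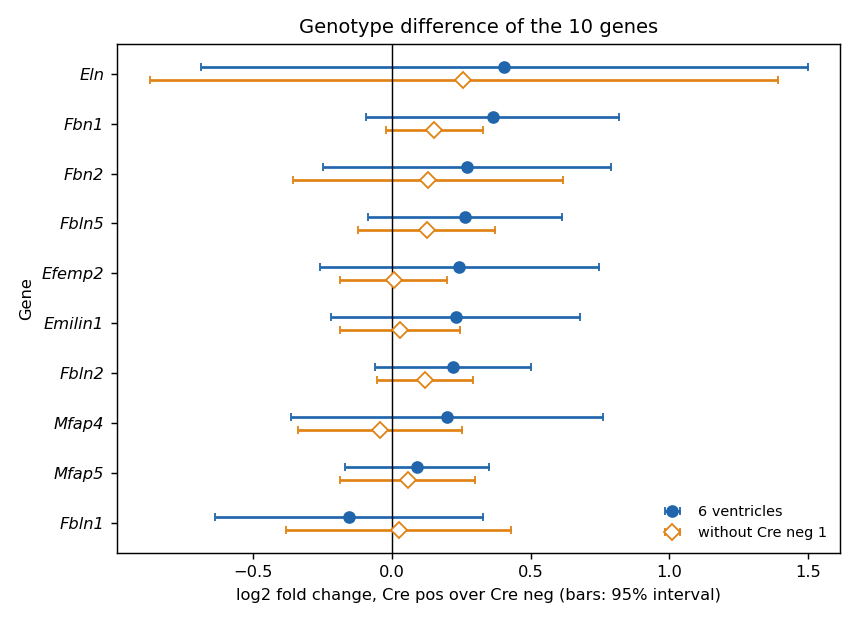
Log2 fold changes of Cre pos over Cre neg ventricles with their 95% intervals from edgeR, over 6 ventricles (filled circles) and without Cre neg replicate 1 (open diamonds). Every interval includes 0, and all 10 values are nearer to 0 when that ventricle is left out.

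Of the 8 fibroblast markers 6 had a log2 fold change above 0 (median 0.10), and 5 of 8 did without Cre neg replicate 1 (median 0.11). The highest were the collagen genes *Col1a2* (0.39) and *Col1a1* (0.36), both least abundant in Cre neg replicate 1. The lowest were *Dpt* (−0.10) and *Dcn* (−0.07). The summed level of the 8 markers was 3472 to 5325 TPM in Cre neg and 5311 to 6187 TPM in Cre pos ventricles. Their mean log2 CPM was 8.04 ± 0.18 (SD, n = 3) in Cre neg and 8.18 ± 0.13 in Cre pos ventricles, a difference of 0.14, and that of the members was 7.56 ± 0.26 and 7.80 ± 0.11, a difference of 0.23. Relative to the fibroblast markers, the members were 0.09 higher in Cre pos ventricles (exact two-sided permutation p = 0.2), with the groups overlapping. That difference was 0.05 without Cre neg replicate 1 or without Cre pos replicate 1, 0.15 without Cre pos replicate 3, and 0.15 with the fibroblast markers that are no matrix genes. *Fbn1* was 0.26 higher and *Fbln1* 0.30 lower on that scale, with exact permutation p = 0.3 and p = 0.4. All 8 cardiomyocyte markers had negative log2 fold changes, from −0.44 to −0.06 (median −0.31), while without Cre neg replicate 1 the median was −0.13 and 2 of 8 were positive. Of the smooth muscle markers 5 of 6 were positive (median 0.37, and 0.10 without Cre neg replicate 1). All 5 epicardial and mesothelial markers were positive (median 0.63, and 1.44 without Cre neg replicate 1). Their summed level was 30.1 to 121 TPM in Cre neg and 81.0 to 161 TPM in Cre pos ventricles. It was highest in Cre pos replicate 1 and lowest in Cre neg replicate 3, as for *Eln*. The orders differed between these, with 121 TPM beside 182 TPM of *Eln* in Cre neg replicate 1, and 54.2 beside 419 TPM in Cre neg replicate 2. Of the 4 valve and aorta markers 1 was positive (median −0.62, and −0.21 without Cre neg replicate 1). They summed to 112 TPM in Cre neg replicate 1 and to 36.1 to 55.6 TPM in the other 5 ventricles. Medians of 3 lists turned sign without Cre neg replicate 1, from −0.90 to 0.67 for 5 neutrophil, from 0.10 to −0.08 for 6 macrophage and from −0.16 to 0.23 for 3 red blood cell markers. Every marker of the lists was detected in at least 1 ventricle. The part of cell composition in the members' values was not tested.

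Ratios between related members within a ventricle did not separate the genotypes in any of the 4 pairs compared. The log2 ratio of *Fbln2* over *Fbln1* in TPM was 0.84 ± 0.49 (SD, n = 3) in Cre neg and 1.24 ± 0.37 in Cre pos ventricles, a difference of 0.40 (exact two-sided permutation p = 0.5). That difference was 0.14 without Cre neg replicate 1, 0.19 without Cre pos replicate 2 and 0.62 without Cre neg replicate 3. That of *Fbn2* over *Fbn1* was −4.73 ± 0.26 and −4.87 ± 0.33, a difference of −0.13 (exact permutation p = 0.8) that ranged from −0.33 without Cre pos replicate 3 to −0.02 without Cre pos replicate 1. For *Mfap5* over *Mfap4* the ratio was 0.58 in Cre neg replicate 1 and between −0.28 and −0.08 in the other 5 ventricles, so that this ventricle alone had more *Mfap5* than *Mfap4*. For the short fibulins *Efemp2* over *Fbln5* the ratio was 0.71 ± 0.28 and 0.73 ± 0.12 (exact permutation p = 1). Adjusted over the 4 pairs, each p was 1.

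Of 69 further genes of elastic fibre biology, 68 were found and 64 tested, and 0 had an adjusted p under 0.05 by edgeR's quasi-likelihood test. At an unadjusted p under 0.05 there were 6, all higher in Cre pos ventricles, where 5.83% of all genes tested had such a p in either direction, and DESeq2's Wald test called 0. Among the tested genes 50 of 64 had a log2 fold change above 0 (51.2% of all genes tested did), with a median of 0.16. All 5 lysyl oxidases, the enzymes that crosslink elastin and collagen, were among these, with a median of 0.34, and 4 of 5 were without Cre neg replicate 1 (median 0.14). *Lox* had 3943, 5349 and 5782 counts in Cre neg and 6523, 6473 and 6077 in Cre pos ventricles, and did not overlap (log2 fold change 0.34, standard error 0.15, quasi-likelihood adjusted p = 0.714 in edgeR). Cre neg replicate 1 was lowest, and 7.55% of all genes tested had all Cre pos ventricles above all Cre neg ventricles. *Loxl2* and *Loxl3* had log2 fold changes of 0.34 and 0.39, with Cre neg replicate 1 far below the other ventricles for both.

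Microfibril and elastin binding proteins had 18 of 24 tested genes above 0 (median 0.16), and 20 of 24 without Cre neg replicate 1 (median 0.09). The smallest unadjusted p-values were those of *Vcan*, a proteoglycan that binds fibrillin (0.35), *Ltbp2* (0.59) and *Fbln7* (0.49), given with their log2 fold changes. *Ltbp2* had 1268, 2777 and 3192 counts in Cre neg and 3670, 3618 and 3639 in Cre pos ventricles, without overlap, with Cre neg replicate 1 far below the rest. Such separation was seen in 7.55% of all genes tested. Like *Lox*, *Ltbp2* was picked by its p-value, so its separation is no further result. Of the growth factors that microfibrils store 5 of 6 were above 0 (median 0.20), and 4 of 6 without Cre neg replicate 1 (median 0.12). They included *Tgfb2*, with a log2 fold change of 0.48 (95% interval 0.10 to 0.85, quasi-likelihood adjusted p = 0.714 in edgeR), *Bmp2* (0.43) and *Tgfb3* (0.30). Integrins that bind microfibril proteins had 8 of 9 genes above 0 (median 0.24), and 7 of 9 without Cre neg replicate 1 (median 0.185). Their smallest p-values were those of *Itgav* (log2 fold change 0.42), *Itgb3* (0.26) and *Itga5* (0.24). Of the elastin degrading enzymes and their inhibitors 8 of 12 were above 0 (median 0.03), and 7 of 12 without Cre neg replicate 1 (median 0.03). Their smallest p-values were those of the inhibitor *Timp1* (log2 fold change 0.46), the collagen- and elastin-cleaving cathepsin *Ctsk* (0.26) and the elastase inhibitor *Slpi* (−0.58). The assembly and trafficking genes had 6 of 8 above 0 (median 0.08), and 4 of 8 without Cre neg replicate 1 (median −0.00084). The smallest p-values there were those of *Slc2a10* (log2 fold change 0.30), *Atp7a* (0.21), the copper transporter that supplies lysyl oxidases, and *Fkbp10* (0.20).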

How the data were processed

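Left ventricle samples, 3 Cre neg and 3 Cre pos by their labels, were profiled by RNAseq from TRIzol extracts at a commercial provider. The labels do not say whether each ventricle came from 1 animal, and p-values measure only the spread between these samples. The authors deposited estimated counts, TPM and FPKM per gene; the submitters' processing notes name Bowtie2 2.2.5, RSEM 1.2.12 and GRCm38.p6, without their roles. The authors' own comparison (log2 fold changes, p-values and q-values) and their group means were not used.

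Estimated counts, 11.5% of them not whole, were rounded. Genes passing edgeR's filterByExpr (minimum count 10, minimum total 15) were scaled by TMM and tested with edgeR's quasi-likelihood test (edgeR 4.0.16, R 4.3.3), without covariates, Benjamini-Hochberg threshold 0.05. Normalized read counts were set to the mean library size, 14264187, after TMM scaling. Centered profiles used a prior count of 2, and log2 TPM ratios a pseudocount of 0.1. Single values were compared by exact permutation. DESeq2 1.42.0 and quantile normalization in limma 3.58.1 were alternatives, with other filters, a replicate block, FPKM in place of TPM for ratios, and each ventricle left out. The test was checked on simulated counts.

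The members and the lists were chosen with earlier results of these data known. Genes were named by rule: the members, *Yap1*, *Wwtr1* and *Postn*, the 3 smallest unadjusted p-values in each list of elastic fibre genes, and the 5 genes nearest the members' mean profile among genes with a mean log2 CPM of at least 3. *Gbp2b*, the atrial markers and the 4 fibroblast markers with values were named outside it, the latter and *Gbp2b* after their values were seen.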

Additional observations from a re-analysis of the deposited data

How the results depend on the processing

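Over 12 alternatives for each member, 116 of 120 log2 fold changes kept their direction, none was called, and adjusted p-values from edgeR, limma or DESeq2 lay between 0.509 and 0.996. The reversals all came from leaving out a ventricle, with ranges of −0.295 to 0.0242 for *Fbln1*, −0.0428 to 0.462 for *Mfap4* and −0.15 to 0.96 for *Eln*. *Yap1* likewise ranged from −0.0242 to 0.0615, the *Efemp2* over *Fbln5* ratio from −0.11 to 0.17 and the *Mfap5* over *Mfap4* ratio from −0.348 to 0.0787. Between 8 and 10 members had values above 0 when a ventricle was left out, with medians of 0.09 (without Cre neg replicate 1) to 0.33, and 9 in every other setting. The number of all genes called was 1 in the main test, 5 by DESeq2's Wald test and 0 to 2 when a ventricle was left out, *Postn* being called without Cre neg replicate 1. It was 0 by edgeR without Cre neg replicate 3, Cre pos replicate 1 or Cre pos replicate 3, with 1346, 556 and 513 genes at an unadjusted p under 0.05. The causes were not tested.

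Replicate numbers were not taken as pairs, since the labels do not say that they mark a shared animal or day. Same-numbered ventricles had correlations of deviations of 0.35, 0.07 and −0.03, and 3 of 6 ventricles correlated best with their own number. These values cannot decide whether the numbers mark pairs. With the replicate number as a block, edgeR called 0 genes, with 1217 at an unadjusted p under 0.05, among them *Fbn1* and *Fbn2* (adjusted p = 0.562 for both). With 3 ventricles a genotype, no exact permutation test could go below p = 0.1.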
